A study of Mus musculus with 6 samples.

Results

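The core circadian clock genes are the 10 genes *Arntl* (also called *Bmal1*), *Clock*, *Npas2*, *Per1*, *Per2*, *Per3*, *Cry1*, *Nr1d1*, *Nr1d2*, and *Dbp*. They were found through the RefSeq accession of each probe, which gave 11 probes among the 39429 on the array, 1 for each gene except *Dbp*, which had 2. The named probes of the array cover 20659 genes in all. RNA came from interscapular brown adipose tissue (iBAT), with 3 samples labeled control and 3 labeled *ob/ob*, the genotype with a mutated leptin gene, and each sample was read on its own single-dye Agilent array. All were males of 16 weeks on a C57BL/6 background by their labels, which call the control genotype only "control" and do not say whether RNA of several mice was pooled, so p values measure only the spread between these samples. The hour at which the iBAT was taken, on which clock transcripts depend, is not given in the sources used here, and it cannot be told apart from the condition or from the array.

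The clock is a feedback loop of transcription. In its positive arm, ARNTL pairs with CLOCK, or with its relative NPAS2, binds E-boxes in DNA, and switches on the *Per*, *Cry*, and *Nr1d* genes and outputs such as *Dbp*. In the negative arm, the PER and CRY proteins return to block ARNTL-CLOCK, and the nuclear receptors NR1D1 and NR1D2 (REV-ERB alpha and beta) repress *Arntl* through ROR elements. In peripheral tissues kept in a light-dark cycle, *Arntl* transcripts therefore peak at about the opposite time of day from those of *Nr1d1*, *Dbp*, and the *Per* genes. In brown fat, NR1D1 is also known to restrain *Ucp1* and the daily rhythm of heat production.

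Promoter sequences show which of these elements lie close to a start of transcription. RefSeq promoter sequences of assembly GRCm38.p6 were at hand for 9 of the 10 genes (13 windows, since some genes have several starts), and the 250 bases before each start were searched on both strands. The E-box CACGTG was found in 2 of the 13 windows (*Cry1* and *Per1*), compared with 6.02% of 32851 windows of all genes, and its variant CACGTT in 2 (*Cry1* and *Nr1d1*), compared with 3.85%. The D-box TTATGTAA, the site of DBP and its relatives, was found in the window of *Per3*, which holds 2 copies (0.819% of all windows hold any). The D-box TTACGTAA, the ROR element cores TAGGTCA and TGGGTCA, and the CRE TGACGTCA were in none of the 13 windows (0.113%, 2.23%, 3.24%, and 1.55% of all windows). A match describes the letters of the window and is not evidence of binding, and the lack of one covers these windows only. The 4 windows with a match are printed below, and no relation between a motif and the signal of its gene was tested. They run 5′ to 3′ on the strand of the gene, with the motif in capitals, and a CACGTT on the other strand reads AACGTG.

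Cry1 (chr10:85185055-85185304, minus strand): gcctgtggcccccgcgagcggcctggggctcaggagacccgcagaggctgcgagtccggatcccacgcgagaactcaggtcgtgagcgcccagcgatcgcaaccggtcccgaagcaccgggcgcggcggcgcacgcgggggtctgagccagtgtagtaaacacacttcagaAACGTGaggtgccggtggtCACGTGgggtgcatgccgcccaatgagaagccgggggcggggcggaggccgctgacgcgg
Per1 (chr11:69098699-69098948, plus strand): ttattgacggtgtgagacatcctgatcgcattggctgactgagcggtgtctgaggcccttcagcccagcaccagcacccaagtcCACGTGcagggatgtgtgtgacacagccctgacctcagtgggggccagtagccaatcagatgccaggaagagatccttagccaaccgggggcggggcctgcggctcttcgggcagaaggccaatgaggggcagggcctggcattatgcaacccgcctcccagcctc
Nr1d1 (chr11:98775378-98775627, minus strand): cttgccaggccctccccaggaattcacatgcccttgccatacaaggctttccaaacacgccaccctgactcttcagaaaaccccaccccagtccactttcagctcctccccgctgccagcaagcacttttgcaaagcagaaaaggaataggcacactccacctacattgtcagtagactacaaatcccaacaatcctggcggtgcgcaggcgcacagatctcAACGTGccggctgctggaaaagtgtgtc
Per3 (chr4:151044666-151044915, minus strand): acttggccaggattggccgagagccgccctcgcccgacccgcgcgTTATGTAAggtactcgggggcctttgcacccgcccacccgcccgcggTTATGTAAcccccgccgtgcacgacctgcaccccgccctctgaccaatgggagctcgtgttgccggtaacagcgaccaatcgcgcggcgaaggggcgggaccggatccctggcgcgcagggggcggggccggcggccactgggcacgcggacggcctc

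Some features of the arrays bear on every value below. Over the probes tested, control 3 resembled *ob/ob* 1 and *ob/ob* 2 (Spearman correlation 0.915 and 0.944, across probes) more than the other controls (0.642 and 0.730), and *ob/ob* 3 resembled control 1 (0.858) more than the other *ob/ob* arrays (0.573 and 0.488). The first principal component, with 76.7% of the variance, set control 1, control 2, and *ob/ob* 3 on one side and the other arrays on the other, whereas the second (16.5%) separated the groups. Of 10 skeletal muscle markers, 10 were measured, 7 of them above background on all arrays, and their summed signal ran from 12.21 to 15.82 log2 units on the control arrays and from 9.50 to 17.00 on the *ob/ob* arrays, highest in *ob/ob* 3. Brown adipocyte markers (10 of 10 measured, 7 on all arrays) summed to between 12.67 and 16.48 on the control arrays and between 12.04 and 13.60 on the *ob/ob* arrays, and *Ucp1*, which defines the tissue, was above background on all 6 arrays. Erythrocyte markers (4 of 4) ran from 10.40 to 13.61 and from 9.52 to 14.97. The summed signals of white adipocyte (7 of 7), macrophage (7 of 8), endothelial (6 of 6), and lymphocyte markers (7 of 7) stayed within narrower ranges. These were 9.90 to 11.55, 11.63 to 13.92, 11.85 to 13.27, and 9.61 to 11.89 over all arrays. By the median gene, endothelial markers ran more widely, from 5.87 on *ob/ob* 2 to 9.31 on control 2. In bulk tissue, fewer cells of a type and less RNA per cell cannot be told apart. *Lep*, the mutated gene, was 5.21 ± 0.59 on the control arrays and 7.28 ± 1.83 on the *ob/ob* arrays (log2 signal, mean ± SD, n = 3 each), which does not check the labels, since a mutated gene can still be transcribed.

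Signals are given below in log2 units after quantile normalization between arrays, so that 1 unit is a 2-fold difference, and a level can be compared between arrays but not between probes. Differences are *ob/ob* minus control and were tested with limma over 35448 probes, with the brighter probe standing for *Dbp*. At an adjusted p under 0.05, 0 of the 9 clock genes tested were called, as were 0% of the 19011 genes measured. At an unadjusted p under 0.05, limma and the methods' t-test each found 0 of 9, compared with 2.04% of all genes higher and 1.69% lower. The groups did not overlap for 0 of 9 clock genes, compared with 3.78% of all genes higher and 4.22% lower. Of the 9, 7 had a negative log2 fold change and 2 a positive one, where 57.2% of all genes were negative and 42.8% positive, and the sign turned for *Clock* (0.093) with scaling to the 75th percentile and for *Per3* (0.086) with normexp background correction. The median was −0.33 over the positive arm and −0.74 over the 5 tested genes of the negative arm, which leave out *Nr1d1*. It was −0.086 over all genes, and with normexp background correction the medians of the arms were −0.091 and −0.10. The adjusted limma p was 1.0 for each of the 9. The tenth gene, *Nr1d1*, was too dim to pass the filter, and without a filter on detection its log2 fold change was 0.84 with an adjusted limma p of 1.0.

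**Figure D1:**
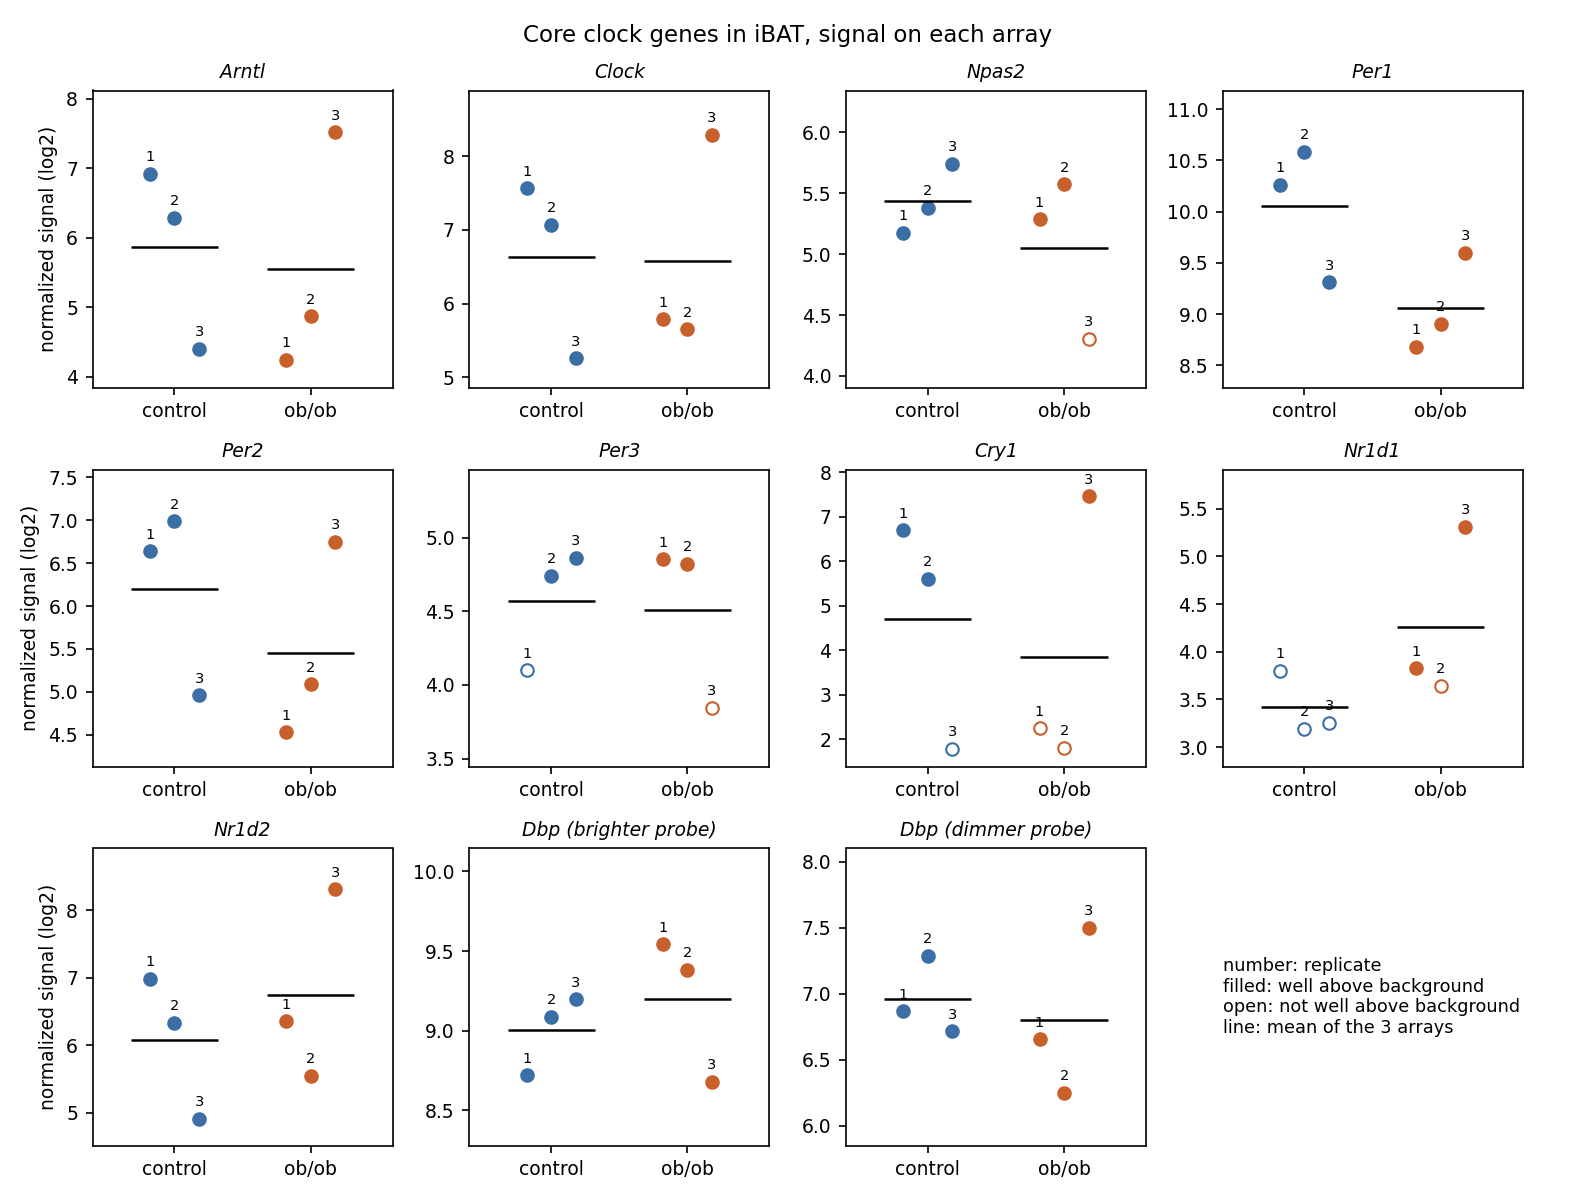
Normalized signal (log2 units, y axis, a scale of its own in each panel) of the 11 clock probes on the 3 control and 3 *ob/ob* arrays, numbered by replicate, with lines at the group means. In all 11 panels the groups overlap, open circles mark signals not well above background, and for *Arntl*, *Clock*, *Per2*, and *Cry1* control 1, control 2, and *ob/ob* 3 lie above the other arrays.

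In the positive arm, *Arntl* was 6.92, 6.29, and 4.41 log2 units on control 1, 2, and 3 and then 4.24, 4.88, and 7.52 on *ob/ob* 1, 2, and 3. The highest and the lowest array were thus both *ob/ob* arrays, and control 3 lay among the low ones. The means of 5.87 ± 1.31 and 5.55 ± 1.74 (SD, n = 3 each) differed by −0.33 (standard error 1.04, 95% interval −2.84 to 2.18, unadjusted limma p = 0.763, exact two-sided permutation p = 0.90). *Clock*, which encodes the partner of ARNTL, followed the same arrays, with 7.56, 7.07, and 5.26 on the control arrays and 5.79, 5.65, and 8.29 on the *ob/ob* arrays. Its log2 fold change was −0.05 (standard error 0.92, interval −2.29 to 2.18), so a change of up to about 2 units in either direction is within its error. *Npas2*, which can take the place of *Clock*, did not follow them. It was 5.18, 5.38, and 5.74 on the control arrays and 5.29, 5.57, and 4.30 on the *ob/ob* arrays, the last not well above background. Here *ob/ob* 3 was the lowest array and control 3 the highest, and the log2 fold change was −0.38 (standard error 0.44, interval −1.44 to 0.68).

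Among the *Per* genes of the negative arm, *Per1* came closest to separating the groups. *Per1*, which also answers quickly to hormones and cAMP, was 10.26, 10.58, and 9.31 log2 units on control 1, 2, and 3 and then 8.68, 8.90, and 9.60 on *ob/ob* 1, 2, and 3. Only the pair of control 3 and *ob/ob* 3 was out of order. The log2 fold change was −0.99, a fold of 0.504, with a standard error of 0.47 and an interval from −2.13 to 0.15 (unadjusted limma p = 0.0781, exact two-sided permutation p = 0.20). With 3 samples against 3, the permutation p cannot go below 0.10. The direction held under each of 17 alternative settings, with values from −1.63 to −0.72. *Per2*, whose protein is a main brake on ARNTL-CLOCK, was 6.64, 6.99, and 4.96 on the control arrays and 4.53, 5.09, and 6.75 on the *ob/ob* arrays. Its 3 high arrays were control 1, control 2, and *ob/ob* 3, and the log2 fold change was −0.74 (standard error 0.78, interval −2.63 to 1.15). *Per3*, the least essential of the *Per* genes for the rhythm, was 4.10, 4.74, and 4.86 on the control arrays and 4.85, 4.82, and 3.85 on the *ob/ob* arrays. It was lowest on *ob/ob* 3 and control 1, the arrays where *Arntl* was highest, and was not well above background on either. The log2 fold change was −0.06 (standard error 0.43).

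*Cry1*, which encodes the strongest repressor of the loop and has both an E-box and its variant in the window printed above, had the widest spread of the 9. It was 6.69, 5.60, and 1.78 log2 units on the control arrays and 2.24, 1.81, and 7.46 on the *ob/ob* arrays, and it was well above background only on control 1, control 2, and *ob/ob* 3. The SD within groups was 2.88 for *Cry1*, higher than for 99.5% of genes, where the median gene had 0.69. The size of this SD depends on signals at background. On control 3, *ob/ob* 1, and *ob/ob* 2, *Cry1* lay under the lowest signal of any probe well above background (4.15, 3.63, and 4.19). Its log2 fold change of −0.86 has a standard error of 1.89 and an interval from −5.43 to 3.71, which leaves large changes of either sign within the error. Pooled SDs of *Arntl* (1.54), *Clock* (1.35), *Nr1d2* (1.26), and *Per2* (1.12) were also above that median, whereas those of *Per1* (0.58), *Npas2* (0.51), *Per3* (0.50), and *Dbp* (0.37) were below it.

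Of the repressors of *Arntl*, *Nr1d2* was 6.99, 6.34, and 4.91 log2 units on the control arrays and 6.36, 5.55, and 8.32 on the *ob/ob* arrays. It was highest on *ob/ob* 3 and lowest on control 3, and the log2 fold change was 0.66 (standard error 0.86, interval −1.43 to 2.75, unadjusted limma p = 0.472, exact permutation p = 0.50). Without *ob/ob* 3, it was −0.13. *Nr1d1* was not well above background on any control array and was above it on *ob/ob* 1 and *ob/ob* 3. Its measured signals were 3.80, 3.20, and 3.26 on the control arrays (mean 3.42 ± 0.33) and 3.83, 3.64, and 5.31 on the *ob/ob* arrays (mean 4.26 ± 0.91). On each control array its level is bounded by the higher of its own signal and the lowest signal of any probe well above background, which averaged 3.93. The *ob/ob* mean was 0.33 above this, less than the SD between the *ob/ob* arrays, with only *ob/ob* 3 above 3.93 and *ob/ob* 2 itself not well above background, so no fold is given. *Dbp*, an output gene that ARNTL-CLOCK drives and a transcription factor acting through D-boxes, had 2 probes of the same accession. The brighter was 8.72, 9.09, and 9.20 on the control arrays and 9.54, 9.38, and 8.68 on the *ob/ob* arrays, and the dimmer was 6.87, 7.29, and 6.72 and 6.66, 6.25, and 7.50. *ob/ob* 3 was the lowest array for one probe and the highest for the other. The log2 fold changes were 0.20 (standard error 0.37, interval −0.70 to 1.10) and −0.15 (standard error 0.43, interval −1.20 to 0.89), so the probes differed in sign, both within the spread between replicates.

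**Figure D2:**
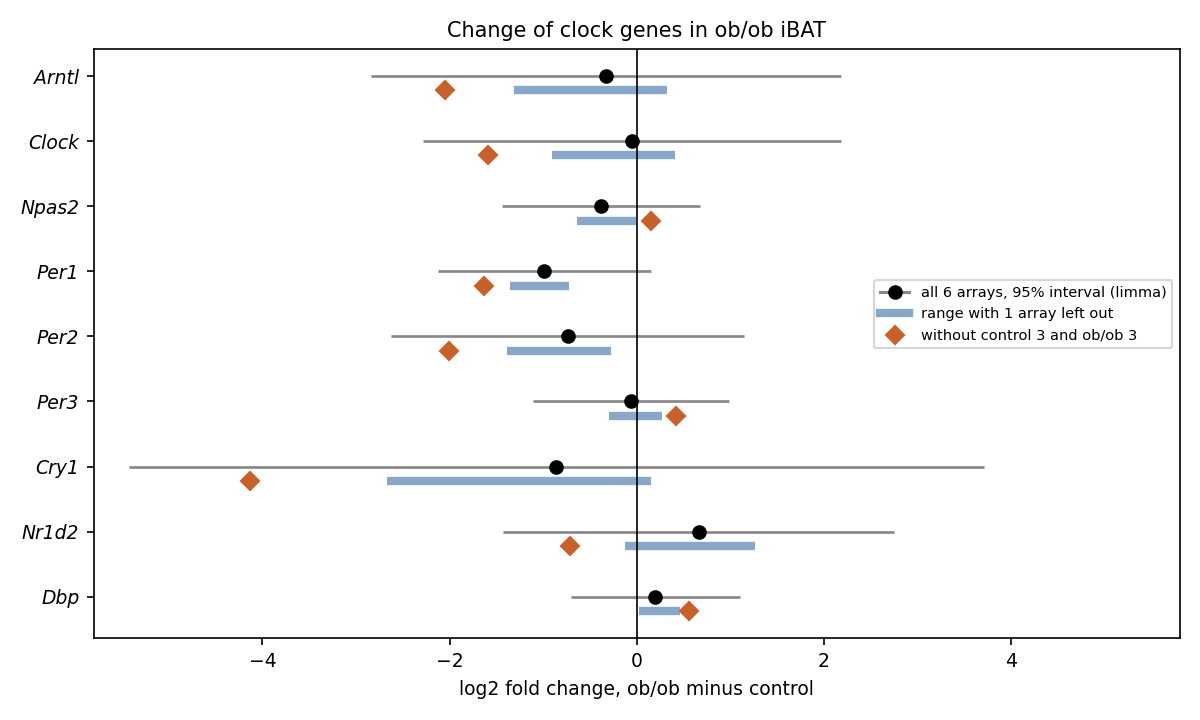
Log2 fold change (x axis, *ob/ob* minus control) of the 9 clock genes tested, as black points with 95% intervals from limma, with the range when 1 array is left out (blue bars) and the value without control 3 and *ob/ob* 3 (orange diamonds). All 9 intervals include 0, and that of *Cry1* is the widest, from −5.43 to 3.71.

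To relate the arms, each gene was set against its own mean over the 6 arrays, and these deviations were averaged over the 3 genes of the positive arm and the 5 measured genes of the negative arm (*Per1*, *Per2*, *Per3*, *Cry1*, and *Nr1d2*). The positive arm deviated by 0.70, 0.39, and −0.72 log2 units on control 1, 2, and 3 and then by −0.75, −0.49, and 0.85 on *ob/ob* 1, 2, and 3. The negative arm deviated by 0.82, 0.73, and −0.95 on the control arrays and by −0.79, −0.89, and 1.08 on the *ob/ob* arrays. On each of the 6 arrays the arms thus lay on the same side of 0, up on control 1, control 2, and *ob/ob* 3 and down on the rest, rather than on opposite sides, also when each array was scaled to its 75th percentile. Without *Cry1*, a choice made after seeing the data, the negative arm deviated by 0.41, 0.58, and −0.57 on the controls and by −0.48, −0.49, and 0.55 on the others, with the same signs. The negative arm minus the positive arm was 0.12, 0.34, and −0.24 on the control arrays and −0.04, −0.40, and 0.22 on the *ob/ob* arrays, which overlap. Their means of 0.07 ± 0.29 and −0.07 ± 0.31 (SD, n = 3 each) differed by less than the spread between samples. The arms were not uniform, since *Npas2*, *Per3*, and the brighter probe of *Dbp* ran against the other members, each with its lowest signal on *ob/ob* 3 and the next lowest on control 1. No correlation between the arms is given, since the arrays fall into separate clusters.

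**Figure D3:**
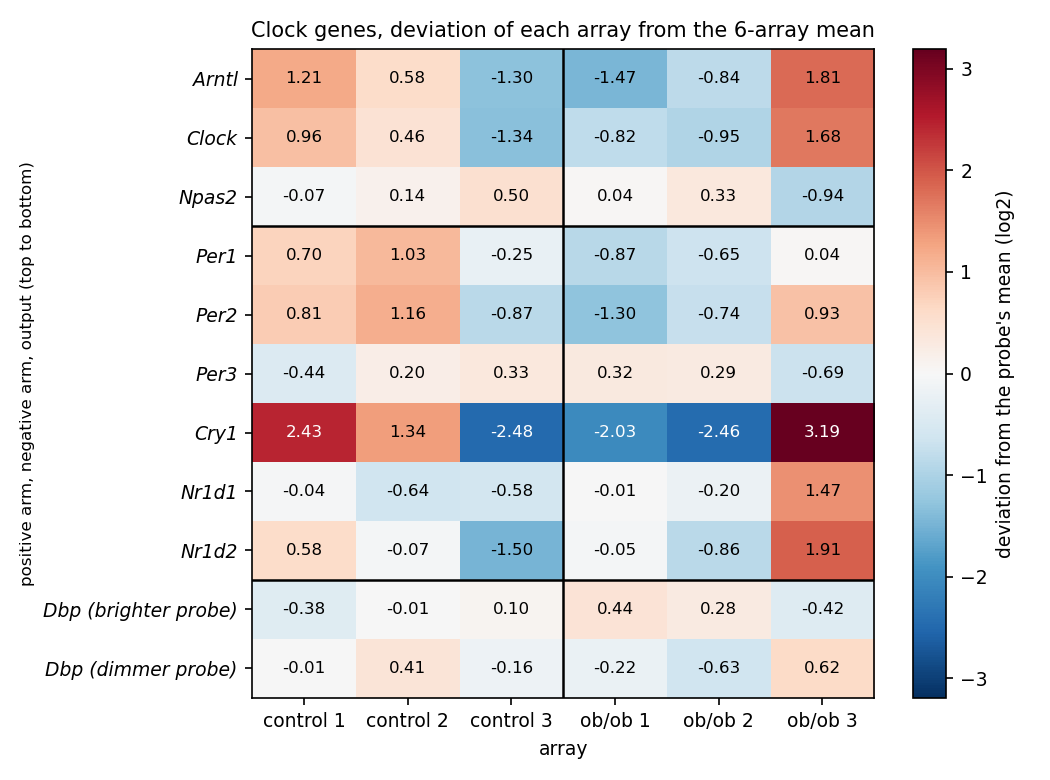
Deviation of each clock probe (rows) from its mean over the 6 arrays (columns), in log2 units, with red above and blue below that mean and lines between the arms and between the groups. *Arntl*, *Clock*, *Per2*, and *Cry1* are above their means on control 1, control 2, and *ob/ob* 3 and below them on the other arrays, with *Cry1* spanning −2.48 to 3.19.

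This pattern was that of the arrays as a whole. The first principal component of all probes held 99.1% of the variance of *Clock* over the 6 arrays, 99.1% of that of *Cry1*, 95% for *Arntl*, 82.7% for *Per2*, and 80.8% for *Nr1d2*, against a median of 72.2% over all probes. For *Per1* it held 47.7%, and the second component, which separated the groups, held 49.4% (median over all probes 12.3%). These genes had their higher signals on the side of control 1, as 38.5% of all probes did, whereas *Npas2* (67.6%), *Per3* (77.8%), and the brighter *Dbp* probe (76.9%) went the other way. The summed skeletal muscle markers were also highest on control 1 (15.43), control 2 (15.82), and *ob/ob* 3 (17.00), compared with 12.21, 9.80, and 9.50 on control 3, *ob/ob* 1, and *ob/ob* 2, and the summed erythrocyte, brown adipocyte, and white adipocyte markers were highest on the same 3 arrays. The summed lymphocyte markers were lowest on those 3. A sum is carried by the brightest genes of a list. By the median gene, muscle and erythrocyte markers were again highest on those 3 arrays. Endothelial markers were also highest there by the median, at 9.08, 9.31, and 8.51 on control 1, control 2, and *ob/ob* 3. They were at 7.25, 6.23, and 5.87 on control 3, *ob/ob* 1, and *ob/ob* 2, although their sum was lowest on *ob/ob* 3 (11.85). Macrophage markers were by the median lowest on control 1 (7.01), *ob/ob* 3 (7.42), and control 2 (7.48). White adipocyte markers were instead lowest on control 1 (5.98) and control 2 (6.02). They were highest on *ob/ob* 3 (7.60), with 6.25, 6.60, and 6.36 on control 3, *ob/ob* 1, and *ob/ob* 2. Brown adipocyte markers were by the median lowest on *ob/ob* 3 (7.33). The part of these cell types in the clock values was not tested. By correlation over the 6 arrays, the genes most like *Arntl* were *Pik3c2a*, *Apmap*, *Vipas39*, *Dolk*, and *Ints10* (Pearson r of 0.996 to 1.0, a description over 6 clustered arrays), and 1067 of 12610 candidate genes (8.46%) had an r over 0.95. The same was not done for *Nr1d1*, which was too dim.

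**Figure D4:**
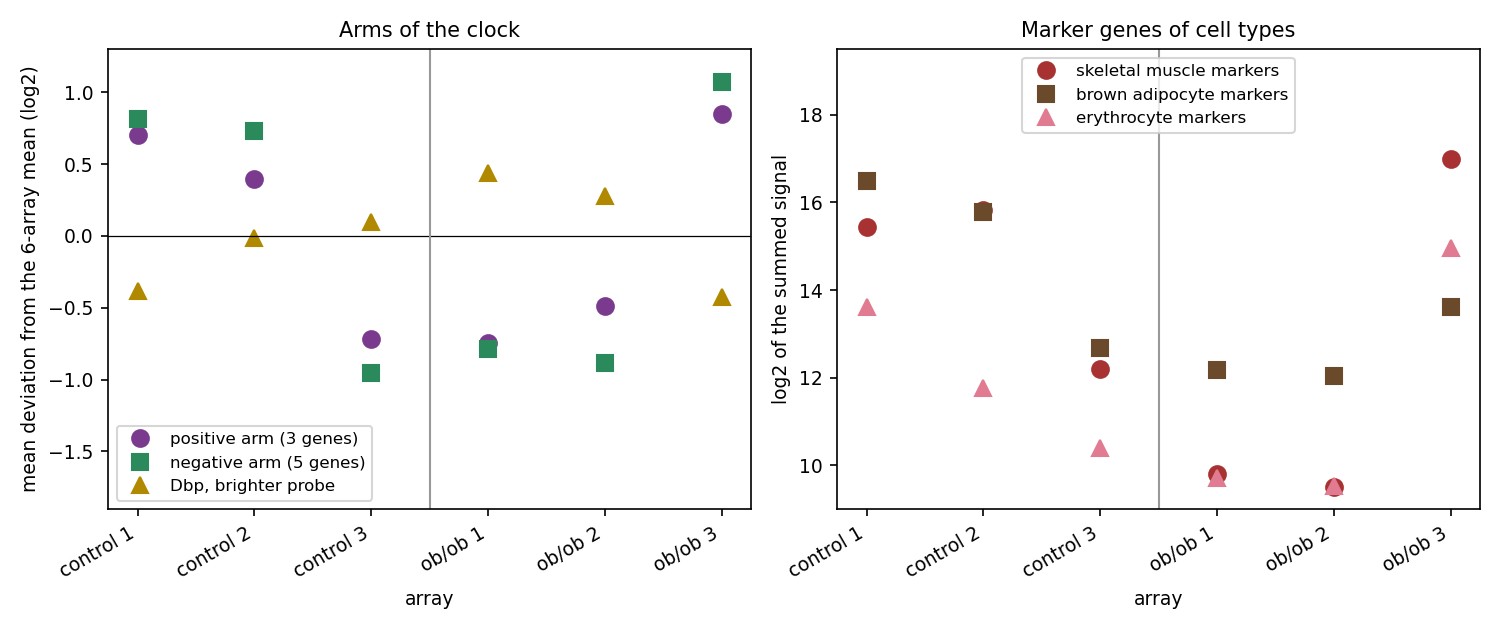
Left, mean deviation (log2 units) of the positive arm, the negative arm, and the brighter *Dbp* probe from the 6-array mean on each array. Right, log2 of the summed signal of skeletal muscle, brown adipocyte, and erythrocyte markers, where the muscle markers run from 9.50 on *ob/ob* 2 to 17.00 on *ob/ob* 3, and the arms and the muscle markers are both high on control 1, control 2, and *ob/ob* 3.

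The clock values turned on control 3 and *ob/ob* 3. When those 2 arrays were left out, control 1 and control 2 stood above *ob/ob* 1 and *ob/ob* 2 for *Cry1* (log2 fold change −4.13), *Arntl* (−2.05), *Per2* (−2.01), *Per1* (−1.63), and *Clock* (−1.59). These 5 of 9 genes then had an adjusted limma p between 7.65e-05 and 0.00140, but so did a large part of the array, with 27% of all genes called lower and 22.3% higher. *Cry1* was not well above background on *ob/ob* 1 and *ob/ob* 2. Its signals there lie under the lowest signal of any probe well above background (3.63 and 4.19). The sizes of the *Cry1* changes in this paragraph, and its p, therefore rest on signals at background. The arrays left out were chosen for their resemblance to the other group over these same probes, so these values describe the remaining 4 arrays and do not test the condition. *Nr1d2* (−0.71), *Npas2* (0.15), *Per3* (0.42), and *Dbp* (0.56, brighter probe) were not called among them. The dimmer *Dbp* probe went the other way, at 6.87 and 7.29 on control 1 and control 2 and 6.66 and 6.25 on *ob/ob* 1 and *ob/ob* 2. Leaving out *ob/ob* 3 alone moved *Arntl* to −1.31 and *Cry1* to −2.67, and leaving out *ob/ob* 1 alone moved *Arntl* to 0.32. Control 1, control 3, and *ob/ob* 1 were read in 1 scan, and each other array in a scan of its own. Within that scan, *ob/ob* 1 lay below the mean of both controls by a log2 difference of −1.42 for *Arntl*, −2.0 for *Cry1*, −1.27 for *Per2*, and −1.10 for *Per1*. It lay above that mean by 0.58 for the brighter *Dbp* probe, with 1 *ob/ob* array and no test. The 2 controls lay far apart, with *Arntl* at 6.92 on control 1 and 4.41 on control 3, against 4.24 on *ob/ob* 1. *Cry1* was 6.69 and 1.78 on them and 2.24 on *ob/ob* 1, which was thus not below control 3.

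A further 22 genes of the clock machinery were measured, namely other core factors, nuclear receptors, kinases, and ubiquitin ligases that set the life of PER and CRY. Of these, 2 had an unadjusted limma p under 0.05 with a higher signal in *ob/ob* iBAT and 0 with a lower one (9.09% and 0%, beside 2.04% and 1.69% of all genes), and 0 passed an adjusted p under 0.05. *Ncor1*, which encodes the corepressor that NR1D1 recruits, was 6.94, 6.24, and 6.54 log2 units on the control arrays and 7.73, 7.92, and 7.37 on the *ob/ob* arrays, without overlap. The log2 fold change was 1.10 (standard error 0.35, unadjusted limma p = 0.0190, exact permutation p = 0.10). Its other probes, for other accessions, gave 0.05 and 0.41, each with overlapping groups. *Btrc*, which encodes a ubiquitin ligase subunit that marks PER proteins for breakdown, was 5.86, 5.26, and 6.24 on the control arrays and 7.08, 7.16, and 6.35 on the *ob/ob* arrays. It did not overlap either, and the log2 fold change was 1.08 (standard error 0.42, unadjusted limma p = 0.0395, exact permutation p = 0.10). Scaled to the 75th percentile of each array instead, *Ncor1* and *Btrc* were at 0.94 and 0.70, and neither kept an unadjusted limma p under 0.05. The median over the 22 genes was −0.12, against −0.086 over all genes. *Cry2* (0.94), *Nfil3* (−0.81), *Rora* (−0.57), and *Bhlhe40* (−0.17) all had overlapping groups.

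Of 12 output genes of the clock, 0 had an unadjusted limma p under 0.05, and the groups did not overlap for 0, beside 2.04% of all genes higher and 1.69% lower by p and 3.78% and 4.22% without overlap. Their median log2 fold change was −0.24, with *Hlf* and *Tef*, the relatives of *Dbp*, at 0.95 and −0.96. Of 12 genes that answer to glucocorticoids, hormones that also set *Per1*, 0 had an unadjusted p under 0.05 in limma, and for 2 (3.78% of all genes) every *ob/ob* array lay above every control array. The metallothionein gene *Mt2* was 12.78, 12.14, and 10.63 log2 units on the control arrays and 13.33, 13.04, and 16.22 on the *ob/ob* arrays, a log2 fold change of 2.34 (standard error 0.99). *Fkbp5*, which encodes a chaperone of the glucocorticoid receptor, was 8.90, 9.40, and 8.62 on the control arrays and 9.41, 9.66, and 11.81 on the *ob/ob* arrays, a log2 fold change of 1.32 (standard error 0.69). For both genes *ob/ob* 3 was by far the highest array, and without it the log2 fold changes were 1.33 and 0.56. An exact permutation test gave p = 0.10 for each, the smallest that 3 samples against 3 allow. *Per1* differed from these 2 genes in sign, at −0.99, as did *Sgk1* (−1.98, standard error 1.92), which was itself highest on *ob/ob* 3. Of the 12 genes, 6 had a positive log2 fold change and 6 a negative one, with a median of −0.16.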

How the data were processed

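Per the file headers and the study's methods, each array was read with Agilent Feature Extraction (version 11.0.1.1), and the deposited intensity per spot has had its local background removed but no scaling between arrays. A table of log2 values that the authors quantile normalized in GeneSpring was also deposited and served as an alternative (Spearman correlation with the scanner values 0.999 to 1.00). The array's annotation uses mm9, and probes were named through RefSeq (GRCm38.p6) accessions.

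Control spots and those flagged as outliers were removed, repeated spots were averaged per probe in log2 units, and the arrays were quantile normalized. Probes had to be well above background in at least 50% of their spots on at least 3 of 6 arrays (35448 probes, 19011 genes), and the brightest probe stood for a gene. The test was that of the R package limma (R version 4.3.3, limma version 3.58.1), with Benjamini-Hochberg adjustment over all probes. Figures used Python (version 3.11.15) and matplotlib (version 3.10.9). Simulated arrays of 35448 probes had noise drawn independently for each probe and array. On them, the mean estimate was 0.979 of a true change of 3 log2 units. The real arrays share a pattern across probes, so this checks the calculation and not the precision of the changes reported. No spot was saturated, the arrays carry no counts, and their number limits the precision.

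The members and the lists (other clock genes, clock outputs, glucocorticoid-responsive genes, and cell type markers) were chosen with earlier results of these data known. Named are all members and, from the first 3 lists, genes with an unadjusted p under 0.05 or without overlap, with a few others, named after their values were seen, as examples of overlapping groups. The alternatives were scaling to the 75th percentile, normexp (offset 50) on median spot signals, the authors' values, no or stricter detection, the methods' t-test, an intensity trend with robust estimation, blocks for replicate number and scan, each array left out in turn, control 3 and *ob/ob* 3 left out together, and the mean of a gene's probes.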

Additional observations from a re-analysis of the deposited data

How the results depend on the processing

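The clock genes were recomputed under 17 alternatives. *Per1* and *Per2* stayed lower in each. *Dbp* stayed higher by its brighter probe or by the mean of its probes, whereas its dimmer probe was at −0.15 with all 6 arrays. *Per1* had an unadjusted limma p under 0.05 without control 3, without *ob/ob* 3, and without both. Scaling to the 75th percentile, which moves the median of all probes to −0.32, turned *Clock* to 0.093 and gave 139 probes higher and 312 lower at an unadjusted p under 0.05 and 2-fold (598 and 478 as reported), with 0 other clock genes and 1 glucocorticoid-responsive gene higher. Normexp turned *Per3* to 0.086 and brought *Arntl* to −0.091, *Per2* to −0.34, *Cry1* to −0.10, and the arms' medians to −0.091 and −0.10, with 128 and 310 probes and 1 other clock gene lower. Detection on all 6 arrays left 394 probes higher and gave no value for *Npas2*, *Per3*, and *Cry1*, the methods' t-test gave 327 higher and 313 lower, the trended robust fit had 1 adjusted call, and the mean of a gene's probes gave 285 and 225, with 1 other clock gene higher and *Dbp* at 0.022. Same-numbered samples deviated in opposite directions (correlations −0.850 to −0.658), so the numbers share no more than a label, and the replicate block gave 139 and 220 probes, 0 other clock genes higher, and no change of direction for a clock gene. The scan block gave 35 and 113 probes, *Per3* at 0.37, 0 other clock genes higher, and 1 glucocorticoid-responsive gene lower.

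Without control 3 and *ob/ob* 3, *Npas2* (0.15), *Per3* (0.42), *Nr1d2* (−0.71), and the median of all probes (0.12) changed sign, and the positive arm's median was −1.59. There were 5869 probes higher and 6789 lower at an unadjusted p under 0.05 and 2-fold, and 16259 of 35448 had an adjusted p under 0.05. At an unadjusted p under 0.05 alone, 5 core clock genes passed. So did 4 higher and 11 lower other clock genes, 2 and 6 output genes, and 1 and 8 glucocorticoid-responsive genes. At an adjusted p under 0.05, 22.3% of all genes were higher and 27% lower. By that rule, 3 and 11 of 22 other clock genes passed, 2 and 6 of 12 output genes, and 0 and 8 of 12 glucocorticoid-responsive genes.

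Leaving out 1 array at a time, log2 fold changes ran from −1.31 to 0.32 for *Arntl*, −0.91 to 0.41 for *Clock*, −2.67 to 0.15 for *Cry1*, −0.30 to 0.27 for *Per3*, −0.64 to −0.0049 for *Npas2*, −1.36 to −0.72 for *Per1*, −1.39 to −0.28 for *Per2*, 0.027 to 0.46 for *Dbp*, and −0.13 to 1.26 for *Nr1d2*. The median ran from −0.91 to 0.32 over the positive arm and from −1.36 to −0.22 over the negative arm. From 112 to 1762 probes were higher and 173 to 1170 lower, in each case fewest without control 2 and most without control 3, and the median of all probes ran from −0.11 to 0.028. Core clock genes with an unadjusted p under 0.05 numbered 0 to 1 (*Per1*), other clock genes 0 to 3 higher and 0 to 1 lower, output genes 0 to 1 each way, and glucocorticoid-responsive genes 0 to 1 higher and 0 to 2 lower. The causes were not tested. Signal over background limits *Nr1d1*, *Cry1*, *Per3*, and *Npas2*, which were not well above background on every array.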
